A study of Mus musculus with 12 samples.

Results

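The genes described here drive DNA synthesis and mitosis, and they were followed in liver and lung of mice with and without a mammary tumor. The set holds 38 genes, chosen by name and mapped to the arrays by the platform's gene symbols. Of these, 36 had at least 1 probe set with that single symbol, out of 12393 genes measured in this way, and together they had 62 probe sets. Ccnb1 and Cdkn3 were not analysed here, because the probe annotation used lists no probe set for them.

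The tumor-bearing group consisted of female nude NCR mice carrying an orthotopic tumor of 4T1, a mammary carcinoma line of mouse known to metastasize to both organs. The control group consisted of female nude NCR mice injected with PBS at the same site. All tissue was taken on day 7, and the labels call the organs of the tumor-bearing mice pre-metastatic. Each of the 4 groups (tumor-bearing liver, control liver, tumor-bearing lung, control lung) held 3 Affymetrix arrays, 12 in all. Both organs came from 3 tumor-bearing and 3 control mice, but the titles do not say which liver and lung share a mouse. All groups share the nude background, which lacks a working thymus, and every tumor came from 1 cell line. Values are log2 GCRMA values, a scale on which a difference of 1 is a doubling.

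A cell that divides first makes its DNA building blocks and copies its genome, and then condenses, aligns and separates its chromosomes. The transcripts for these steps are made in waves and are scarce in resting cells, so their level in a whole organ is commonly read as a measure of how much cell division goes on there. In an adult liver or lung few cells divide, although hepatocytes re-enter the cycle after injury. In a bulk sample a lower level can come from fewer dividing cells or from less RNA per cell, and these cannot be told apart here.

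Organ markers matched the labels. The surfactant gene Sftpc read 15.70 to 15.86 in lung, and Alb, which codes for the albumin that hepatocytes secrete, read 16.05 to 16.20 in liver. Alb also read 14.39 on lung tumor replicate 1 and 14.65 on lung control replicate 3, against at most 11.08 on the other lung arrays, so these 2 lung arrays stood apart. Sftpc read 6.54 on liver control replicate 2, against at most 2.63 on the other liver arrays, so this array stood apart for Sftpc. Arrays of a group correlated at 0.989 or more over all probe sets.

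Most of the mitotic members were barely measured in either organ. The genes with a value above 4 on at least 3 of the 6 arrays of an organ were tested, and 12 of the 36 members passed this filter in liver, 11 in lung and 9 in both. On none of the 12 arrays did 17 members exceed 4: Tyms, Pole, Ccna2, Ccnb2, Foxm1, Plk1, Aurka, Aurkb, Bub1, Bub1b, Ncaph, Cenpe, Kif11, Kif20a, Nusap1, Tpx2 and Racgap1. Foxm1, the transcription factor of the late cell cycle genes, Plk1, the polo-like kinase, Bub1b, a spindle checkpoint kinase gene, and Cenpe, a kinetochore motor, stayed within 0.05 of their own lowest value throughout. The members just inside the filter were Ncapg2 in liver and Cdc6, which loads the replicative helicase, in lung, at 4.32, 4.24 and 3.93 in tumor-bearing lungs and 3.93, 4.36 and 3.21 in control lungs. The members just outside it in liver were Birc5, Prc1 and Ube2c, each above 4 on 2 arrays.

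Promoter sequences are shown for the 3 members with the smallest p in either organ (all 3 windows hold a searched motif), because genes of this set are known to be switched together through short promoter elements. The NF-Y factor binds CCAAT, the DREAM and B-MYB complexes bind the cell cycle homology region (TTTGAA or TTCGAA), and E2F factors bind sites with the core TTCCCGC or its variants, of which TTCGCGC was searched, then TTGCCGC and lastly TTGGCGC. Both strands were searched in 250 bases before and 50 after the annotated start (RefSeq, GRCm38.p6), and matches are in capitals. Ncapg2 codes for a condensin II subunit, Cenpa for the centromeric histone H3 variant and Mki67 for the chromosome surface protein Ki-67. Their windows are chr12:116405186-116405485 (plus strand), chr5:30666636-30666935 (plus strand) and chr7:135716330-135716629 (minus strand), printed along the strand of the gene.
Ncapg2: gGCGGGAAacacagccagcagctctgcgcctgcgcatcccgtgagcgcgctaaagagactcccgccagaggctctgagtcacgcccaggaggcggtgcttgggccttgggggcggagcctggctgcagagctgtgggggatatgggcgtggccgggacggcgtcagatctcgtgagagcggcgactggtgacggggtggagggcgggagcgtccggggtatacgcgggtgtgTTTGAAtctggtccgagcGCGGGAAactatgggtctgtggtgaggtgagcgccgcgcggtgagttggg
Cenpa: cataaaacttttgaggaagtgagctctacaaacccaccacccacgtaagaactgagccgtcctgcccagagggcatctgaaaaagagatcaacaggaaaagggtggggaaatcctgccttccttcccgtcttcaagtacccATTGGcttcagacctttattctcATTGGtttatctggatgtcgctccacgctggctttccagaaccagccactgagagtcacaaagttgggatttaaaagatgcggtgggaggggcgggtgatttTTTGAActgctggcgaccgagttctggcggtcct
Mki67: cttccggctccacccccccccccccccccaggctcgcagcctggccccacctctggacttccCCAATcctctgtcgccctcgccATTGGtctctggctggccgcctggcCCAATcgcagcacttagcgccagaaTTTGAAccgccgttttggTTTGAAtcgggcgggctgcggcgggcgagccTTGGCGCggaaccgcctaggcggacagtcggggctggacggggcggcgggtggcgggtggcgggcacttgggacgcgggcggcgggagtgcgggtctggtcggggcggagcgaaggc
The Ncapg2 window holds 1 TTTGAA, 18 to 13 bases before the start, and 2 E2F cores but no CCAAT. The Cenpa window holds 2 CCAAT boxes on the opposite strand and 1 TTTGAA 17 to 22 bases after the start. The Mki67 window holds 3 CCAAT boxes, 2 TTTGAA elements and 1 E2F core.

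Of the 38 members 31 had a promoter window in the table. CCAAT was present in 74.2% of these 31 windows and in 37.4% of all 32851 windows, and the cell cycle homology region in 58.1% and 19.2%. An E2F core was present in 29.0% of the member windows and 9.57% of all windows, and both CCAAT and the homology region in 54.8% and 7.52%. None of these motifs overlaps another in the windows printed. A match describes these letters in the window and is no measure of binding.

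In tumor-bearing livers the members were higher in mean more often than lower, but only Ncapg2 passed the test. Of the 12 members tested in liver 1 rose and 0 fell at an adjusted p under 0.05 (limma), where 0.635% of the 7712 genes tested rose and 1.23% fell. At an unadjusted p under 0.05, 6 members were higher and 0 lower, where 8.17% of all genes tested were higher and 17.7% lower. Of the 12 tested, 11 passed the filter on their control arrays alone, and 5 of these 11 were higher at that p. The members themselves were chosen with earlier results of these data known, so these counts only describe the set. Over all 36 measured members 25 had a higher and 5 a lower mean in tumor-bearing livers, where 35.8% of all 12393 genes had a higher mean. Of these 36, 18 never exceeded 4 in liver. The median change over all genes was 0, and that of the 36 members was 0.31. Without liver tumor replicate 3 the median of the members was 0.02.

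Ncapg2 read 4.32, 4.18 and 5.0 in tumor-bearing livers and 2.63, 2.20 and 2.22 in control livers. The groups did not overlap, and the change was 2.15 ± 0.25 (log2, SE; limma adjusted p = 0.0338). With all control arrays under the filter value, the rise against that value was at least 1.41-fold. Ncapg2 passed the filter through its tumor arrays alone. The call ended whichever liver array was left out, in fits where at most 1 of all genes passed. Without a control array the change was 2.08 to 2.29 (adjusted p = 0.0962 to 0.129, limma), and without a tumor array the gene no longer passed the filter. With values under 4 set to 4 the change was 0.50 (adjusted p = 0.215, limma).

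Of the DNA synthesis members, higher means in tumor-bearing livers were found for both subunits of ribonucleotide reductase, the enzyme that makes deoxynucleotides. Rrm1, its large subunit, read 7.52, 7.41 and 7.84 in tumor-bearing livers and 7.08, 7.08 and 7.05 in control livers. The groups did not overlap, with a change of 0.52 ± 0.12 (SE, limma adjusted p = 0.0818), and the other Rrm1 probe set changed by 1.52 ± 0.43. Rrm2, the small subunit made in S phase, read 5.88, 5.27 and 6.72 in tumor-bearing livers and 4.25, 5.10 and 5.0 in control livers. Again the groups did not overlap (1.17 ± 0.42, adjusted p = 0.159, limma). The other Rrm2 probe set above 4 read 5.43, 4.09 and 6.87 in tumor-bearing livers and 3.52, 2.32 and 3.90 in control livers, and passed the filter through the tumor arrays alone.

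Pcna, the sliding clamp of the replicative polymerases, read 11.16, 11.17 and 11.90 in tumor-bearing livers and 10.96, 10.89 and 11 in control livers. All tumor arrays lay above all control arrays, but replicate 3 stood well above the other two, and the change of 0.46 ± 0.22 (adjusted p = 0.238, limma) was 0.22 without it. Prim1, the catalytic primase subunit, read 6.5, 7.37 and 8.30 in tumor-bearing livers and 6.27, 6.68 and 6.59 in control livers, where replicate 1 lay among the controls (0.88 ± 0.45, adjusted p = 0.278, limma). Cdc6 exceeded 4 in liver only on tumor replicate 3, at 4.87. Tk1, the salvage enzyme thymidine kinase, did not follow them: it read 8.01, 8.10 and 8.74 in tumor-bearing livers and 9.07, 7.60 and 8.25 in control livers, with a change of -0.02 ± 0.41.

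Of the mitotic kinase and checkpoint group Cdc20, the activator of the anaphase-promoting complex, was the 1 member tested. It read 7.73, 5.89 and 7.76 in tumor-bearing livers and 5.34, 6.05 and 5.34 in control livers. Replicates 1 and 3 lay above every control and replicate 2 below the highest control, with a change of 1.55 ± 0.56 (adjusted p = 0.16, limma). Birc5, which codes for the chromosomal passenger protein survivin, read 4.79, 3.06 and 5.48 in tumor-bearing livers and 2.09, 3.12 and 2.43 in control livers. Prc1, a cytokinesis protein that bundles microtubules, read 4.98, 2.82 and 4.94 in tumor-bearing livers and 2.62, 2.71 and 2.78 in control livers. Both genes were under the filter and, like Cdc20, were high on replicates 1 and 3 and near the controls on replicate 2. Ube2c, the ubiquitin carrier of the same complex, read 4.05, 3.40 and 4.82 in tumor-bearing livers and 2.89, 3.63 and 2.82 in control livers.

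Cenpa read 6.69, 6.16 and 6.70 in tumor-bearing livers and 5.78, 5.47 and 5.59 in control livers. The groups did not overlap, and the change of 0.90 ± 0.18 (adjusted p = 0.0614, limma) missed the threshold. Kif22, a chromosome-arm kinesin, read 7.99, 7.57 and 8.05 in tumor-bearing livers and 7.27, 7.37 and 7.39 in control livers, again without overlap (0.53 ± 0.14, adjusted p = 0.102, limma). Its level rests on 1 probe set whose name marks probes that may match other transcripts, and its other 2 probe sets stayed below 4 on every array. The Cdc20 probe set tested is of the same kind. Its second probe set read 6.02, 3.22 and 4.75 in tumor-bearing livers and 3.11, 3.44 and 3.11 in control livers. Of 17 probe sets of members tested in each organ, 1 passed in liver and 0 in lung (limma), where 1.54% and 0.407% of all probe sets tested passed.

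The cyclins that act before S phase had lower means in tumor-bearing livers, with overlapping groups. Ccnd1, cyclin D1, read 11.49, 12.60 and 12.75 in tumor-bearing livers and 12.71, 12.75 and 12.54 in control livers. Only replicate 1 was low, on all 3 Ccnd1 probe sets, and the change was -0.39 ± 0.34 (adjusted p = 0.509, limma). Ccne1, cyclin E1, read 4.4, 4.59 and 5.36 in tumor-bearing livers and 4.96, 5.24 and 5.11 in control livers (-0.32 ± 0.26). Cdk1, the mitotic kinase, exceeded 4 only on liver tumor replicate 3, at 4.2, and Ccnb2, a mitotic cyclin, exceeded it on none.

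**Figure D1:**
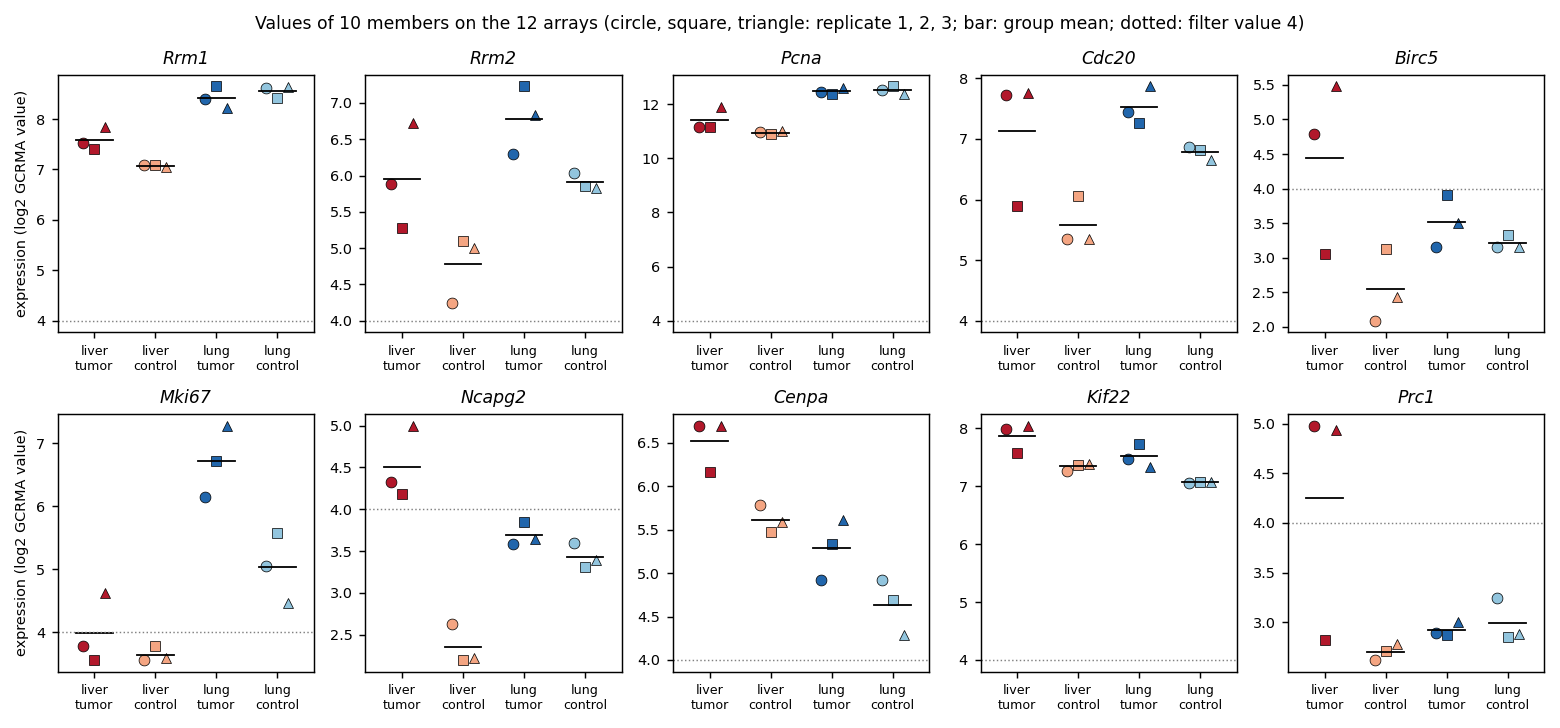
Expression (log2 GCRMA value, vertical axis, a separate range for each panel) of 10 members in the 4 groups of 3 arrays. Symbols stand for replicates 1, 2 and 3, bars for group means and the dotted line for the filter value of 4. In liver Cdc20, Birc5 and Prc1 were high on tumor replicates 1 and 3 only, while Mki67 was higher in all 3 tumor-bearing lungs, at 6.15 to 7.28, than in control lungs, at 4.47 to 5.58.

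The 3 tumor-bearing livers differed in how many members were high and in which. On tumor replicate 3, 19 of the 36 members lay more than 0.5 above the highest control liver, or 52.8%, where 4.01% of all genes did. On tumor replicate 1 there were 9 such members (25%, against 4.76% of all genes), and on tumor replicate 2 there were 2, Prim1 and Ncapg2 (5.56%, against 2.80%). Of the control livers none had a member more than 0.5 above the highest tumor-bearing liver, where 2.73% to 3.82% of all genes were so.

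Tumor replicates 1 and 3 shared Rrm2, Cdk1, Cdc20, Birc5, Ncapg2, Cenpa, Kif22 and Prc1 among these members. Replicate 3 but not replicate 1 had Rrm1, Pcna, Pole, Prim1 and Cdc6 of the DNA synthesis group, the Aurora kinase genes Aurka and Aurkb, Ube2c, Mki67, Top2a, which codes for DNA topoisomerase II alpha, and Smc2, a core condensin subunit. Several of these were at low values: Aurka read 2.97 and Aurkb 2.85 on replicate 3, and both were near their lowest value on the other liver arrays. Replicate 1 but not replicate 3 had Kif20a, a cytokinesis kinesin, at 2.61, and was more than 0.5 below every control for Ccnd1 and Ccne1.

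**Figure D2:**
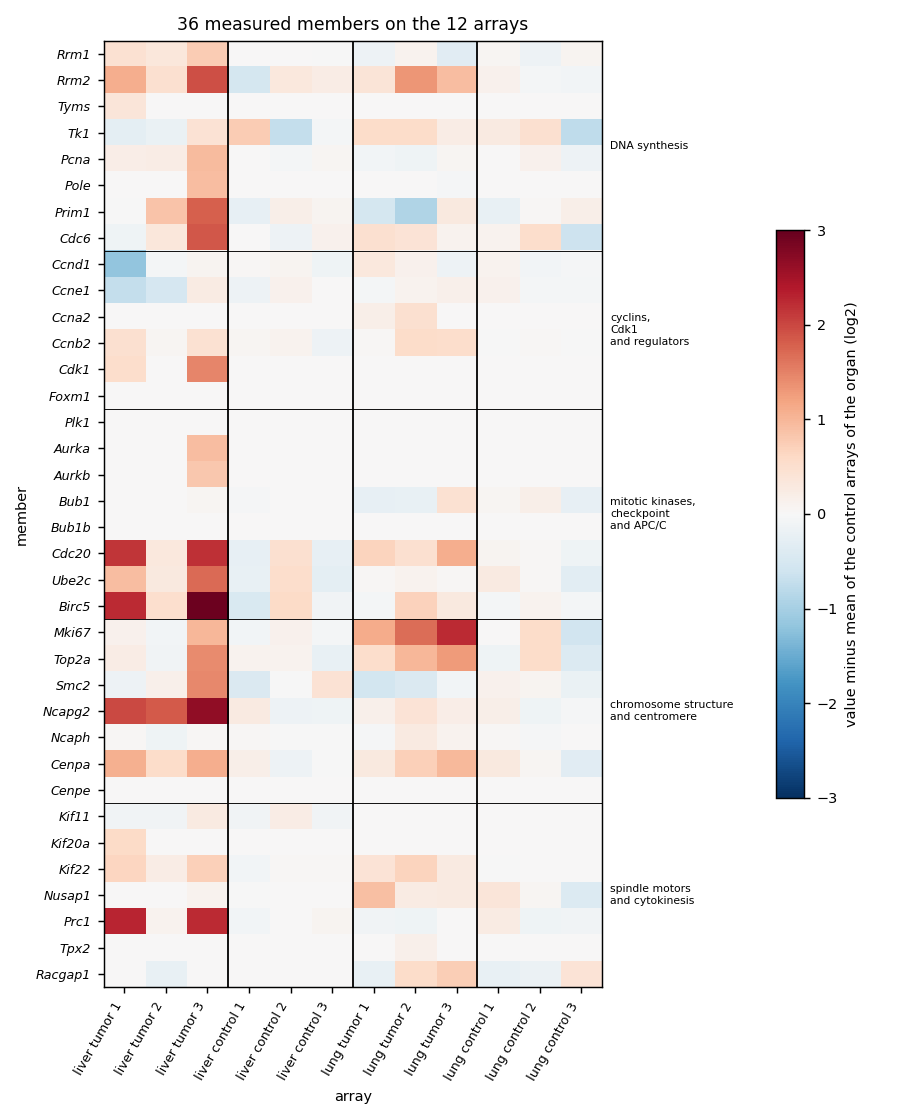
Value minus the mean of the control arrays of the same organ (log2, colour) for the 36 measured members (rows, grouped by role) on the 12 arrays (columns). The column of liver tumor replicate 3 is raised for 19 members by more than 0.5 over the highest control, that of replicate 1 for 9 and that of replicate 2 for 2; white marks values near the control mean.

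In tumor-bearing lungs Mki67 and a few mitotic members had higher means, while most DNA synthesis members did not. None of the 11 members tested passed in either direction (limma), where 0.62% of the 7907 genes tested rose and 0.114% fell. At an unadjusted p under 0.05, 5 members were higher and 0 lower, where 6.72% of all genes tested were higher and 6.46% lower, and all 5 were among the 10 that passed the filter on control arrays alone. The median change over the 36 measured members was 0.05, with 22 higher and 7 lower in mean, where 38.9% of all genes measured were higher. Of these 36, 23 never exceeded 4 in lung. Over the 11 tested the median change was 0.33, where the median over all genes tested was -0.014.

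Mki67 read 6.15, 6.71 and 7.28 in tumor-bearing lungs and 5.05, 5.58 and 4.47 in control lungs. All tumor arrays lay above all control arrays (1.68 ± 0.38, adjusted p = 0.146, limma). Without both lung arrays rich in Alb the change was 1.68 (adjusted p = 0.376, limma), in a fit where 0 of all genes passed. With all 12 arrays in 1 fit, which takes the spread from liver too, the adjusted p was 0.0396 (limma). That fit was the only 1 of 18 alternative settings in which Mki67 passed. Top2a followed the same order at lower values, at 3.45, 3.93 and 4.21 in tumor-bearing lungs and 2.79, 3.47 and 2.52 in control lungs, and was under the filter. Here the lowest tumor array lay below the highest control.

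Cdc20 read 7.44, 7.26 and 7.87 in tumor-bearing lungs and 6.87, 6.82 and 6.65 in control lungs, without overlap (0.74 ± 0.18, adjusted p = 0.16, limma). Its second probe set overlapped, at 3.96, 4.76 and 4.17 in tumor-bearing lungs and 4.06, 3.92 and 3.62 in control lungs. The change there was 0.43 ± 0.24 (adjusted p = 0.519, limma over all probe sets). Rrm2 read 6.29, 7.23 and 6.83 in tumor-bearing lungs and 6.04, 5.86 and 5.83 in control lungs, without overlap (0.87 ± 0.24, adjusted p = 0.209, limma). Kif22 read 7.48, 7.73 and 7.34 in tumor-bearing lungs and 7.06, 7.07 and 7.08 in control lungs (0.45 ± 0.12, adjusted p = 0.196, limma). Cenpa read 4.92, 5.34 and 5.61 in tumor-bearing lungs and 4.92, 4.69 and 4.29 in control lungs, where the lowest tumor array met the highest control (0.65 ± 0.23, adjusted p = 0.325, limma). Higher without overlap in lung were thus 4 of the 11 tested members, where this held for 8.99% of all genes tested, and in liver 6 of 12, where it held for 10.4%. Without Ncapg2, which passed the filter through its tumor arrays alone, it was 5 of 11 in liver. Lower without overlap were 0 members in either organ, where this held for 22.7% of all genes tested in liver and 9.57% in lung. Rrm2 and Kif22 were higher without overlap in both organs, as were 1.89% of the genes tested in both.

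Rrm1, Pcna and Prim1 had lower means in tumor-bearing lungs, and so had the condensin gene Smc2. Rrm1 read 8.40, 8.65 and 8.21 in tumor-bearing lungs and 8.61, 8.41 and 8.64 in control lungs (-0.14 ± 0.14). The other Rrm1 probe set changed by -0.67 ± 0.35 in lung. Pcna read 12.43, 12.39 and 12.59 in tumor-bearing lungs and 12.54, 12.66 and 12.37 in control lungs (-0.06 ± 0.11). Prim1 changed by -0.39 ± 0.31, and Smc2 read 7.30, 7.40 and 7.77 in tumor-bearing lungs and 7.97, 7.92 and 7.64 in control lungs (-0.35 ± 0.16, adjusted p = 0.434, limma). In each of these the groups overlapped.

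**Figure D3:**
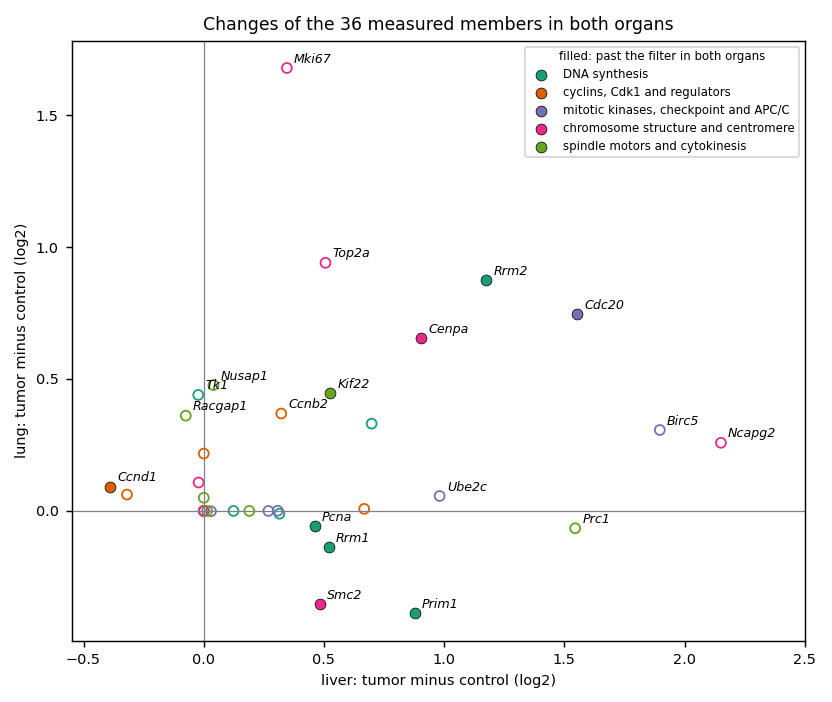
Tumor minus control difference (log2) in liver (horizontal axis) and in lung (vertical axis) of the 36 measured members, coloured by role and filled where the member passed the filter in both organs. Cdc20, Rrm2, Cenpa and Kif22 lie above 0 on both axes, Mki67 lies high in lung (1.68), and Ncapg2 lies high in liver (2.15).

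The difference between the organs was tested as the lung change minus the liver change on all 12 arrays, taken as independent. Of 15 members tested 1 passed as lower in lung and 0 as higher (limma), where 0.522% of 8433 genes tested passed as lower and 1.03% as higher. That member was Ncapg2, at -1.89 ± 0.29 (adjusted p = 0.0159, limma). It read 3.59, 3.85 and 3.64 in tumor-bearing lungs and 3.6, 3.31 and 3.39 in control lungs, all under the filter value, and with values under 4 set to 4 the call ended (adjusted p = 0.31, limma). Without any 1 of the tumor-bearing livers the gene no longer passed the filter. Rrm1 (-0.66 ± 0.20) and Mki67 (1.33 ± 0.51) had the next smallest p, with adjusted p of 0.133 and 0.222 (limma). The other Rrm1 probe set differed by -2.20 ± 0.59 (adjusted p = 0.0999, limma over all probe sets).

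Some marker lists of other cell types differed between tumor-bearing and control mice, while others overlapped. In liver the mean level of 10 mature neutrophil markers was 5.28 to 5.48 in tumor-bearing and 3.85 to 4.70 in control mice. Of these 10, Cxcr2, Mmp9, Mmp8, Clec4d and Cd177 stayed under 4 on all liver arrays. S100a8, S100a9 and the cytokine gene Il1b were higher without overlap, while Csf3r and Fpr2 overlapped. Il1b passed the threshold (adjusted p = 0.0348, limma). The 9 monocyte and macrophage markers averaged 8.18 to 8.29 in tumor-bearing and 7.66 to 8.13 in control livers. The 10 erythroid precursor markers averaged 4.46 to 4.78 in tumor-bearing and 4.90 to 4.96 in control livers, with the transferrin receptor gene Tfrc and the carbonic anhydrase gene Car1 lower (adjusted p = 0.0419 and 0.0484, limma). Of these 10, Hba-a1, Klf1, Epor, Ermap and Rhag stayed under 4 on all liver arrays, and the groups overlapped for Alas2, Car2 and Slc4a1. Only Tfrc and Car1 were lower without overlap. The 9 granulocyte precursor markers averaged 3.49 to 3.73 in tumor-bearing and 3.01 to 3.26 in control livers, where 7 of them never exceeded 4 (Elane, Mpo, Ctsg, Ms4a3, Ltf, Camp and Chil3). Prtn3, an early granule gene of that list, read 10.98, 11.42 and 11.18 in tumor-bearing livers and 7.87, 9.5 and 9.08 in control livers, without overlap (adjusted p = 0.0567, limma). Of these 4 lists that of monocytes and macrophages was highest on tumor replicate 3 among the tumor-bearing livers, and that of erythroid precursors on tumor replicate 2. The means of the granulocyte and neutrophil lists were highest on tumor replicate 1.

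Among the tumor-bearing livers the neutrophil list (5.48, 5.28 and 5.36 on replicates 1, 2 and 3) and the monocyte list (8.23, 8.18 and 8.29) were lowest on replicate 2. So were the endothelial, mammary and B lineage lists. The granulocyte precursor (3.73, 3.62 and 3.49), erythroid precursor (4.54, 4.78 and 4.46) and hepatocyte lists were lowest on replicate 3. The 10 endothelial markers averaged 6.43, 6.03 and 6.63 on tumor replicates 1, 2 and 3, against 6.15 to 6.47 in control livers. The 12 markers of mammary epithelium and carcinoma averaged 5.16, 4.89 and 5.11 on these replicates, against 4.97 to 5.05 in control livers. Of these 12, Krt7, Krt14, Krt5, Csn2, Csn3 and Elf5 stayed under 4 on all liver arrays, and Krt19 read 4.67, 3.11 and 5.37 in tumor-bearing livers and 4.67 in each control liver. Control livers already read 12.28 to 12.42 for Krt8 and 12.67 to 12.82 for Krt18. In tumor-bearing livers Krt8 was lower and Krt18 higher, both without overlap. This list mean cannot show whether a few carcinoma cells were present. The 11 hepatocyte markers averaged 15.20 to 15.22 and 15.18 to 15.20, and the 9 B lineage markers 2.59 to 2.68 and 2.57 to 2.76, in tumor-bearing and control livers. Of these 9 B lineage markers 7 never exceeded 4 in liver. The part of these cells in the liver values was not tested.

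In lung the granulocyte precursor list averaged 6.17 to 6.60 in tumor-bearing and 3.80 to 4.27 in control mice, with Ltf, Camp and Ngp past the threshold (adjusted p = 0.0019, 0.0099 and 0.0273, limma). The early granule gene Prtn3 read 4.22, 5.96 and 4.48 in tumor-bearing lungs and 2.79, 2.79 and 2.47 in control lungs, without overlap. Ltf, Camp and Prtn3 passed the filter through the tumor arrays alone. Elane, Mpo, Ctsg and Ms4a3 stayed under 4 on every array. The mature neutrophil list averaged 9.52 to 10.37 and 6.65 to 7.18, and the 9 B lineage markers 3.80 to 4.08 and 2.88 to 3.14, in tumor-bearing and control lungs. Of these 9, Cd79a, Pax5, Blnk, Vpreb3, Igll1 and Rag1 stayed under 4 on all lung arrays. Of the neutrophil and B lineage lists, Il1b, Mmp8, Cd177 and the B cell receptor gene Cd79b passed the threshold, all higher (adjusted p = 0.0391, 0.0016, 0.0099 and 0.0016, limma). Mmp8 and Cd177 passed the filter through the tumor arrays alone. The mammary list averaged 7.64 to 7.92 in tumor-bearing and 7.60 to 7.75 in control lungs, so these groups overlapped. Krt14, Krt5, Csn2 and Csn3 were under 4 on all 12 arrays. Control lungs already read 13.02 to 13.16 for Krt7, 12.05 to 12.23 for Krt19 and 13.58 to 14 for Cdh1. The list mean therefore cannot show whether a few carcinoma cells were present. The endothelial list averaged 11.82 to 12.06 in tumor-bearing and 11.71 to 12.01 in control lungs, and overlapped as well. So did the erythroid precursor list (5.13 to 5.34 and 5.14 to 5.61) and the hepatocyte list (3.72 to 7.92 and 3.64 to 9.30). The monocyte and macrophage list averaged 7.89 to 8.08 in tumor-bearing and 7.74 to 7.83 in control lungs. The part of these cells in the lung values was not tested.

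Lists of other cell cycle genes were examined beside the members. Of 33 other DNA replication genes measured 26 were tested in liver, and 0 passed in either direction (limma), with 6 higher and 1 lower at an unadjusted p under 0.05, where 8.17% of all genes tested were higher and 17.7% lower. The median change of the 33 was 0.33, against 0 over all genes. The largest changes among those tested were those of Gins1, a helicase subunit (1.41 ± 0.58), the fork protection gene Timeless (1.00 ± 0.42) and the ligase gene Lig1 (0.87 ± 0.48). Rpa3, a subunit of the single-strand binding protein, had the smallest adjusted p (0.0581, limma; 0.64 ± 0.12). In lung 0 of 26 passed, 2 were higher at an unadjusted p under 0.05, against 6.72% of all genes tested (Timeless at 0.82 ± 0.22 and its partner Tipin at 0.49 ± 0.12), the licensing factor gene Cdt1 differed by 0.44 ± 0.28, and the median change of the 33 was 0.07.

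Of 44 other mitosis genes measured 16 were tested in liver and 14 in lung, and 0 passed in either organ (limma). In liver 5 of the 16 were higher and 1 lower at an unadjusted p under 0.05, against the same 8.17% and 17.7% of all genes. Of the 44, 26 had a higher and 8 a lower mean, where 35.8% of all genes measured had a higher mean. The median change was 0.02 over the 44 and 0.29 over the 16 tested. Ckap2, a spindle protein gene, read 5.95, 5.0 and 6.45 in tumor-bearing livers and 3.75 in each control liver, at least 3.48-fold higher (adjusted p = 0.0548, limma). The other large changes among those tested were those of the cytokinesis gene Ect2 (-1.71 ± 0.99, the groups overlapping) and the spindle checkpoint gene Mad2l1 (1.27 ± 0.49). Of these 3 genes only Ckap2 passed the filter through the tumor-bearing livers alone. In the test between organs Ckap2 passed as lower in lung (adjusted p = 0.0407, limma), with every lung array and every control liver under 4, so the size of that difference was not measured. In lung the 3 largest were Hmgb2 (0.75 ± 0.18), Cks2 (0.56 ± 0.14) and Ckap5 (-0.42 ± 0.29).

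Of 39 cell cycle control genes measured 28 were tested in liver, where Myc, a growth-promoting transcription factor, was the 1 that rose and 0 fell. It read 5.98, 5.53 and 5.87 in tumor-bearing livers and 3.93, 4.10 and 4.19 in control livers (1.72 ± 0.14, adjusted p = 0.0323, limma). All 3 tumor arrays were alike for Myc, unlike for Cdc20 or Birc5. In lung 0 of 30 passed (limma), with 3 higher and 2 lower at an unadjusted p under 0.05, against 6.72% and 6.46% of all genes tested, and Myc read 5.29, 5.29 and 5.18 in tumor-bearing lungs and 5.36, 5.84 and 5.12 in control lungs. The largest other changes were those of the anti-proliferative gene Btg2 (1.10 ± 0.24) and of Gas1 (-1.04 ± 0.37) in liver, and of the Cdk inhibitor gene Cdkn2c (0.86 ± 0.24), the Cdk1-inhibiting kinase gene Wee1 (-0.82 ± 0.15) and Cdk2 (0.44 ± 0.16) in lung.

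**Figure D4:**
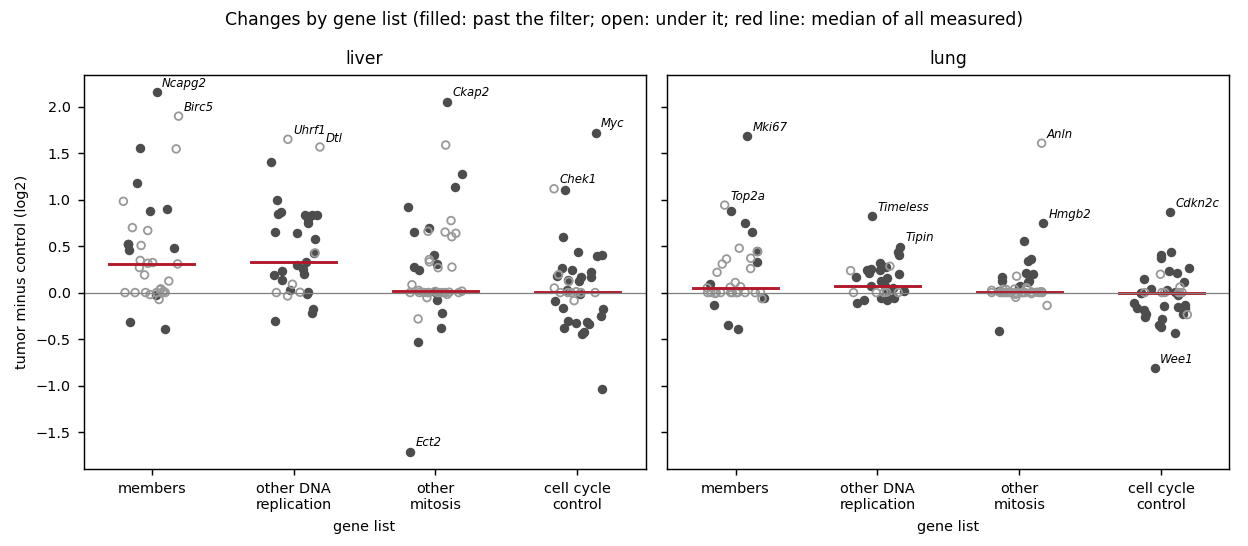
Tumor minus control difference (log2, vertical axis) of each measured gene of 4 lists in liver (left panel) and lung (right panel), with filled points for genes past the filter, open points for those under it and red lines for medians. The medians of the members and of the other DNA replication genes were 0.31 and 0.33 in liver and 0.05 and 0.07 in lung.

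The organs also differed without a tumor. Control lung and control liver arrays were compared as independent, although both organs came from the same 3 control mice. Of the 12 members tested, 7 were higher and 5 lower in lung (limma), where 45.6% of the 8270 genes tested were higher and 35.5% lower. A difference between the organs was thus common among all genes tested. Smc2 averaged 7.84 ± 0.18 in control lung and 5.96 ± 0.44 in control liver (SD, n = 3 each; adjusted p from limma = 0.00045), and Pcna 12.52 ± 0.15 and 10.95 ± 0.06. Prim1, Rrm1, Mki67, Cdc20 and Rrm2 were higher in lung as well, Rrm1 by 2.80-fold and Cdc20 by 2.31-fold.

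Tk1 showed the opposite order by a wide margin. It averaged 2.89 ± 0.67 in control lung and 8.31 ± 0.73 in control liver, at least 19.8-fold lower in lung (adjusted p = 9.61e-05, limma). Ccne1 averaged 3.20 ± 0.11 in control lung and 5.10 ± 0.14 in control liver, and Cenpa 4.64 ± 0.32 and 5.61 ± 0.16. Ccnd1 and Kif22 were lower in lung by 1.27-fold and 1.21-fold. Tumor-bearing lungs kept Tk1 under the filter value, at 3.43, 3.43 and 3.12.

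**Figure D5:**
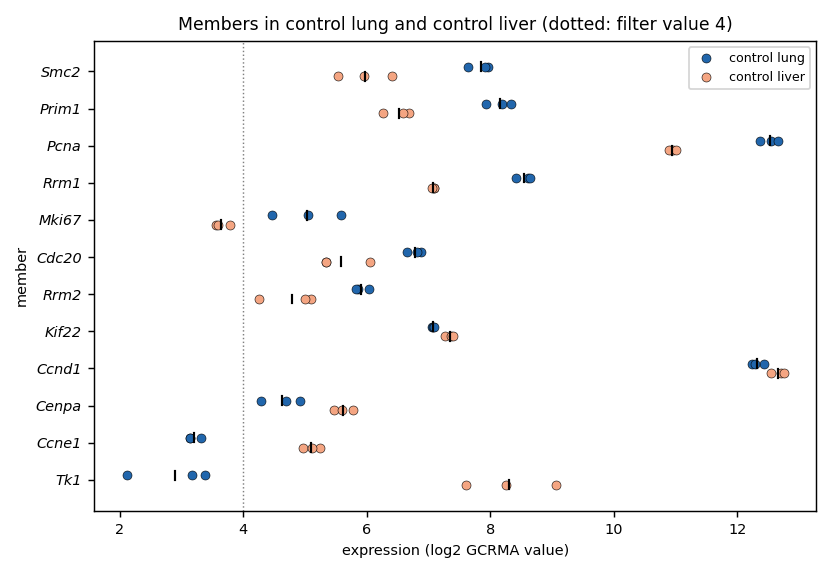
Expression (log2 GCRMA value, horizontal axis) of the 12 members tested between control lung and control liver, with a point per array and a bar at each group mean. Tk1 read 2.12 to 3.38 in control lung and 7.60 to 9.07 in control liver, while Smc2 read 7.64 to 7.97 and 5.53 to 6.4.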

How the data were processed

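RNA of liver and lung was measured on 12 Affymetrix arrays. The deposited values are log2 GCRMA values, per the submitters' processing notes; GCRMA summarizes each probe set after a background model based on probe sequence. Those notes also name limma. Versions, settings and scan batches were not found in the labels. Of 22626 probe sets, 20380 carried 1 gene symbol, 691 several and 1555 were not listed. The probe set of highest average signal stood for its gene. Genes that exceeded 4 (log2) on 3 or more fitted arrays entered limma 3.58.1 (lmFit, eBayes) in R 4.3.3, with Benjamini-Hochberg adjustment over all genes tested and a threshold of 0.05. The same test was run on every probe set. The test was checked on simulated data. The number of arrays limits the precision.

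Members, lists and the naming rule were chosen with earlier results of these data known. Values of every array are given for members with an unadjusted p under 0.05 or groups without overlap among those tested in an organ, and for others with 1 array over 2 from the median of the others; other members are named as examples, chosen after their values were seen. Of the other pathway lists, genes past the threshold and the 3 largest changes tested are named, and of the marker lists those past the threshold in an organ. Prtn3, Krt19, Rpa3, Myc in lung, and the other markers named without a call were added after their values were seen. Alternatives concerned the filter, probe set choice, normalization, low values, eBayes options, array weights, the arrays in the fit, the replicate number as a block and each array left out in turn.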

Additional observations from a re-analysis of the deposited data

Results flagged for a closer look

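The change of Ncapg2 differed between the organs in the test on all 12 arrays, by -1.89 (lung minus liver, log2; limma adjusted p = 0.0159). The tumor minus control difference was 0.26 in lung and 2.15 in liver. All lung arrays and all control livers read under 4. The second Prim1 probe set was lower on all tumor-bearing lungs, at 5.99, 5.77 and 6.0 against 6.17, 6.38 and 6.04 in control lungs, and higher on all tumor-bearing livers, at 5.77, 6.11 and 7.41 against 5.51, 5.67 and 5.77 in control livers. The changes differed by -1.06, which did not pass the test of the difference (adjusted p = 0.278, limma over all probe sets). The probe set representing Prim1 overlapped between the groups in both organs.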

How the results depend on the processing

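The number of members past the threshold (limma) was small enough that single choices moved it. In liver it was 1, and 0 with the filter at 5, with values under 4 set to 4 or with the replicate block, 4 with all 12 arrays in 1 fit (Cenpa, Kif22, Ncapg2 and Rrm1), and 0 to 0 with any 1 array left out. Over probe sets it was 1, and 0 with the filter at 5, with the replicate block or with any 1 array left out. In lung it was 0, and 1 (Mki67) with all 12 arrays in 1 fit. In the test between organs it was 1, 0 with the filter at 5 or with values under 4 set to 4, and 0 to 1 with 1 array left out. Between control organs it ran from 10 to 13, and from 10 to 11 with 1 array left out. The median change of all measured members was 0 in both organs with values under 4 set to 4, since most members lie there in each organ, and over the members that pass the filter it was 0.33 in lung. With 1 array left out it ran from 0.02 to 0.46 in liver and from 0.015 to 0.092 in lung. With 1 array left out, directions turned for Pcna in lung (-0.13 to 0.012, above 0 without control replicate 2), and in the difference between organs for Rrm2 (-0.64 to 0.081, above 0 without liver tumor replicate 3) and Kif22 (-0.23 to 0.012, above 0 without tumor replicate 3 of liver or of lung, at 0.0083 for lung). The titles do not say whether the replicate numbers pair samples. Tumor and control arrays come from different mice. Within an organ, those of the same number deviated together at correlations of -0.28 to 0.33, and others at -0.38 to 0.45. Between liver and lung arrays of like treatment, same-numbered arrays ran from -0.01 to 0.11 and others from -0.11 to 0.02. Which liver and lung share a mouse was not settled by these values. With the replicate block the adjusted p of Ncapg2 in liver was 0.121 and 0 genes of 7712 passed in liver. With the number in the array names, shared by both organs, as a random block, Ncapg2 still passed between organs. Of the single members followed, 401 recomputed values kept direction and call, 4 gained the call, 6 lost it and 4 turned direction.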
